A study of Mus musculus with 8 samples.

Results

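The genes described here encode the sodium-bicarbonate cotransporters (Slc4a4, Slc4a5, Slc4a7, Slc4a8 and Slc4a10), the lactate-proton cotransporters (Slc16a1, Slc16a3 and Slc16a7) and the 2 glycoproteins that carry the latter to the cell surface (Bsg and Emb). They were chosen by name, as routes by which a heart cell can expel acid other than the proton channel HVCN1, and they are 10 of the 39056 genes in the deposited counts. Hearts of 4 HVCN1 null mice (named Hv1 null in the labels, Hvcn1 deleted in the whole animal) were compared with hearts of 4 wild-type (WT) mice of C57BL/6 background. All mice were males, 3 months old, and neither group received any further treatment in the labels. Each heart gave 1 library of poly-A RNA, and hearts are numbered 1 to 4 (HVCN1 null) and 5 to 8 (WT). RNA came from heart tissue and not from isolated myocytes, so a change in the number of cells of a type and a change in RNA per cell cannot be told apart.

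Cardiac myocytes produce acid from carbon dioxide and from lactate. Sodium-bicarbonate cotransporters bring bicarbonate into the cell on the sodium gradient, which neutralises acid. Monocarboxylate transporters (MCTs) move lactate or pyruvate together with a proton in either direction, and they reach the plasma membrane only in a complex with basigin or embigin. MCT1 is the usual lactate carrier of heart muscle, MCT4 is typical of glycolytic cells, and MCT2 has a high affinity for its substrates and is best known from neurons and testis.

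Slc16a7, the gene of MCT2, was the only DEG among these genes, and it was higher in HVCN1 null hearts. Its counts had to be told apart from those of the far more abundant Slc16a1, so the stretch in which the coding sequences of both share their longest run is shown, with the shared bases in capitals. In Slc16a7 it lies in exon 5 of the transcript at chr10:125230615-125230694 (GRCm38, minus strand), and in Slc16a1 in exon 4 at chr3:104653485-104653564 (plus strand).
Slc16a7: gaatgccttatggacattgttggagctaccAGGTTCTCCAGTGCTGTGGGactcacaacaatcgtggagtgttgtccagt
Slc16a1: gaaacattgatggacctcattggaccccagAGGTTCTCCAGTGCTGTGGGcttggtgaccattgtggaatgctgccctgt
The shared run is 20 bases long, shorter than the 50 nt of a read, and the aligned coding sequences of this pair were 64.7% identical. Slc16a3 and Slc16a7 were 59.5% identical, with a longest run of 13 bases. Over all 14 pairs within the cotransporter families and the chaperones the longest run in any transcript was 29 bases, between Slc4a7 and Slc4a8, so no pair shared a run as long as a read.

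Total counts ran from 25851255 to 38874640 per heart. Hvcn1 itself had 16 counts in the 4 HVCN1 null hearts together and 318 in the 4 WT hearts (log2 fold change -4.20, edgeR quasi-likelihood adjusted p = 0.000363), so the libraries matched their genotype labels. Cardiomyocyte markers were abundant in every heart, with 46900 to 60470 CPM (counts scaled to a common library size) summed over 7 genes. Summed atrial markers ran from 337 to 4695 CPM in HVCN1 null hearts and from 109 to 8662 CPM in WT hearts. They were high in hearts 2, 3, 5 and 7, thus in 2 hearts of each genotype. A fit with an atrial score as a covariate is given for Slc16a7 and Emb.

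DEGs were genes with a Benjamini-Hochberg adjusted p under 0.05 in edgeR's quasi-likelihood test, fitted to 14796 genes after a filter on low counts, and a log2 fold change above 0 means a higher level in HVCN1 null hearts. The filter kept 8 of the 10 genes and left out Slc4a5 and Slc4a10. Of the 8 tested, 1 was called (12.5%), against 1.14% of all tested genes (0.743% higher and 0.399% lower in HVCN1 null hearts). The median log2 fold change was 0.09 over the 8 and -0.01 over all tested genes, with 6 values above 0 and 2 below. Groups did not overlap in CPM for 1 of the 8, against 7.06% of all tested genes (HVCN1 null hearts all above in 3.6% and all below in 3.45%).

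**Figure D1:**
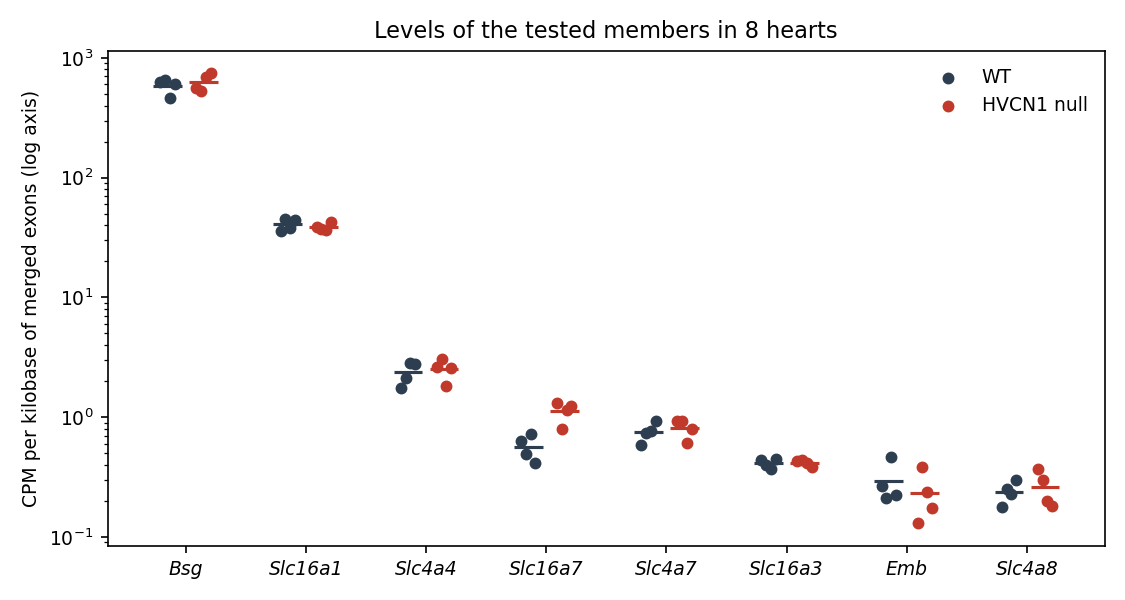
CPM per kilobase of merged exons (log axis) of the 8 tested genes in each heart, WT in dark blue and HVCN1 null in red, with a line at the mean of 4 hearts. Bsg and Slc16a1 stand far above the others, and only for Slc16a7 do all HVCN1 null hearts lie above all WT hearts.

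Between genes, levels were compared as CPM per kilobase of merged exons, over all 8 hearts. Bsg was highest at 608 ± 91.8 (SD, n = 8), followed by Slc16a1 at 39.9 ± 3.68 and Slc4a4 at 2.45 ± 0.488. Bsg was thus 15.3 times as high as Slc16a1 on this scale, and Slc16a1 was 16.3 times as high as Slc4a4. Slc16a7 (0.848 ± 0.347) and Slc4a7 (0.787 ± 0.144) came next and overlapped, with Slc16a7 the higher of the pair in 4 of 8 hearts. Below them were Slc16a3 (0.417 ± 0.0307), Emb (0.262 ± 0.111) and Slc4a8 (0.250 ± 0.0668), and the hearts overlapped between Slc16a3 and Emb and between Emb and Slc4a8. Slc4a5 and Slc4a10 were at or near 0. With the longest transcript as the length, 6 of the 10 genes kept their place, and Slc4a7 passed Slc16a7 and Emb passed Slc16a3.

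Slc16a7 (ENSMUSG00000020102, chr10:125219270-125389465 in GRCm38, minus strand) had 15.7, 9.52, 13.5 and 14.7 CPM in HVCN1 null hearts 1 to 4 and 7.52, 5.87, 8.62 and 4.90 CPM in WT hearts 5 to 8. Every HVCN1 null heart was above every WT heart, with the gap narrowest between null heart 2 and WT heart 7. The means were 13.35 ± 2.70 and 6.73 ± 1.66 CPM (SD, n = 4 each), from 1753 and 958 counts. The log2 fold change was 0.98 (SE 0.20, 95% interval 0.54 to 1.43, edgeR quasi-likelihood adjusted p = 0.0498), a ratio of 1.98 with an interval from 1.45 to 2.69. An exact permutation test of the difference in mean CPM, two-sided, gave p = 0.0286, the smallest that 4 against 4 hearts allow, and 0.405 after adjustment over all tested genes.

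The call of Slc16a7 was close to the threshold, and it held in 9 of 18 further fits while the log2 fold change stayed between 0.87 and 1.13. It was lost without null heart 1, 3 or 4 or WT heart 5, 6 or 8 (edgeR quasi-likelihood adjusted p from 0.105 to 0.173), and held without null heart 2 or WT heart 7 (0.0244 and 0.0377). Those 2 hearts have the Slc16a7 values nearest to the other genotype, null heart 2 the lowest and WT heart 7 the highest of its group. Both also have the highest atrial marker sums of their groups. With an atrial score as a covariate the log2 fold change was 0.97 (adjusted p = 0.0389). The part of atrial tissue in the values of these 2 hearts was not tested.

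**Figure D2:**
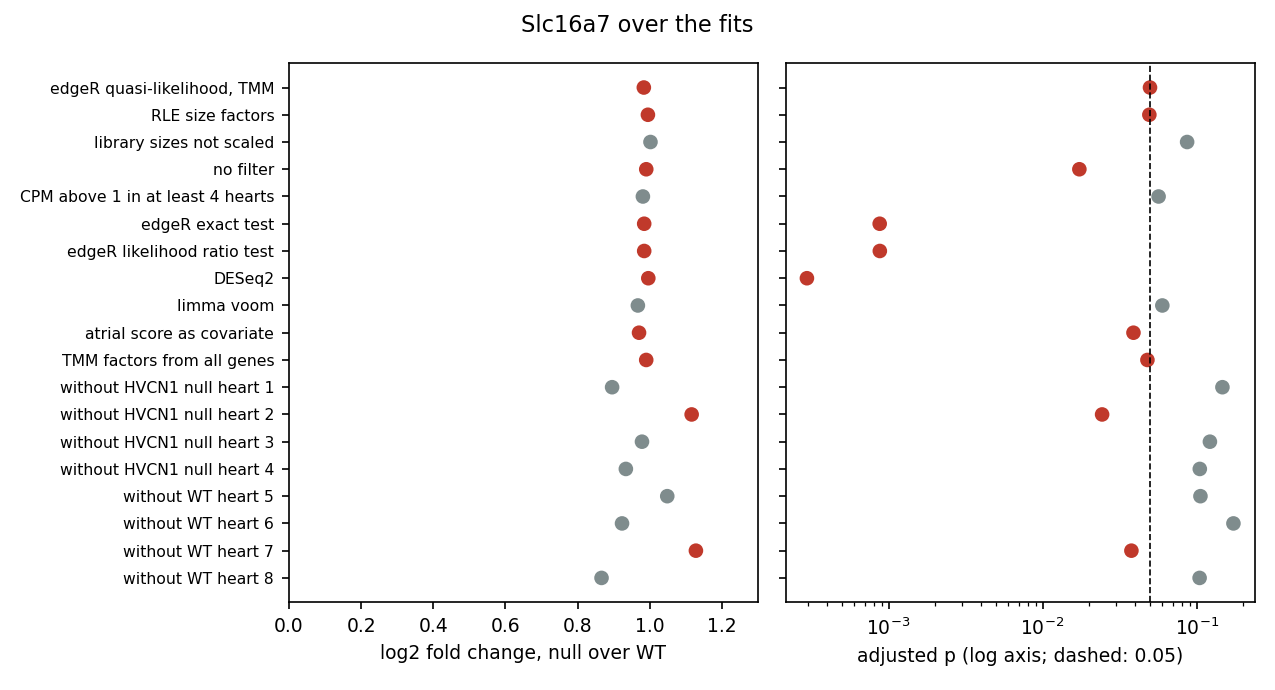
Log2 fold change (left) and adjusted p (right, log axis, dashed line at 0.05) of Slc16a7 in the reported fit and 18 others, with fits under 0.05 in red. The fold change stays between 0.87 and 1.13 in all of them, while the adjusted p falls on both sides of the line.

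MCT2 is known from neurons, so nerve markers were examined beside Slc16a7. All 5 tested of 8 neuron and Schwann cell markers had a log2 fold change above 0 (median 0.62), and none was a DEG. Their summed level was 20.6 to 30.8 CPM in HVCN1 null hearts and 10.5 to 25.6 CPM in WT hearts. It was 20.6, 30.8, 23.3 and 21.3 CPM in HVCN1 null hearts 1 to 4 and 20.3, 11.1, 25.6 and 10.5 CPM in WT hearts 5 to 8. The groups thus overlapped. Atrial markers were high in hearts 2, 3, 5 and 7. The neuronal genes Snap25 and Syt1 and the catecholamine enzyme gene Th, all untested, were at 0 or under 0.07 CPM in each heart. Dbh, another catecholamine enzyme gene, was tested and present in every heart. It had 2.31 to 6.90 CPM in HVCN1 null and 2.19 to 5.24 CPM in WT hearts (log2 fold change 0.33, edgeR quasi-likelihood adjusted p = 0.859). The Schwann cell gene Sox10 had a log2 fold change of 0.93 (edgeR quasi-likelihood adjusted p = 0.158). All 14 macrophage markers had a log2 fold change below 0 (median -0.31), none was a DEG, and their sums were 274 to 345 CPM in HVCN1 null and 318 to 437 CPM in WT hearts. Such runs were not particular to these 2 lists. All 6 tested atrial markers (median -0.44), all 4 tested adipocyte markers (-0.69) and 7 of 8 tested erythroid markers (-0.85) were also below 0. The part of any cell type in the Slc16a7 result was not tested.

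Slc16a1 (ENSMUSG00000032902, chr3:104638668-104658462, plus strand), the gene of MCT1, had 172.5, 164.2, 161.2 and 188.3 CPM in HVCN1 null hearts and 159.7, 201.5, 168.5 and 195.0 CPM in WT hearts. The groups overlapped throughout. The log2 fold change was -0.08 (95% interval -0.31 to 0.15, edgeR quasi-likelihood adjusted p = 0.891), the narrowest interval of the 8 genes. A fall beyond a ratio of 0.806 or a rise beyond 1.11 lies outside it.

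Slc16a3 (ENSMUSG00000025161, chr11:120948480-120960868, plus strand), the gene of MCT4, lay between 1.96 and 2.40 CPM in all 8 hearts. Its means were 2.23 ± 0.143 CPM in HVCN1 null and 2.21 ± 0.205 CPM in WT hearts (± SD over 4 hearts), and its log2 fold change was 0.01 (interval -0.35 to 0.37, adjusted p = 0.995).

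Within the summed per-kilobase level of the 3 MCT genes, Slc16a1 took 96.2% ± 0.473 in HVCN1 null hearts and 97.6% ± 0.534 in WT hearts (SD, n = 4 each). The share of Slc16a7 was 2.79% ± 0.497 (2.10 to 3.26%) in HVCN1 null and 1.39% ± 0.464 (0.920 to 1.86%) in WT hearts, without overlap. Slc16a1 makes up most of the sum, so this share largely restates the CPM of Slc16a7. Those CPM did not overlap either, as in 7.06% of all tested genes. The share of Slc16a1 also did not overlap (95.7 to 96.8% and 97.1 to 98.1%), though its CPM did. Slc16a7 was a small part of MCT mRNA in both genotypes.

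**Figure D3:**
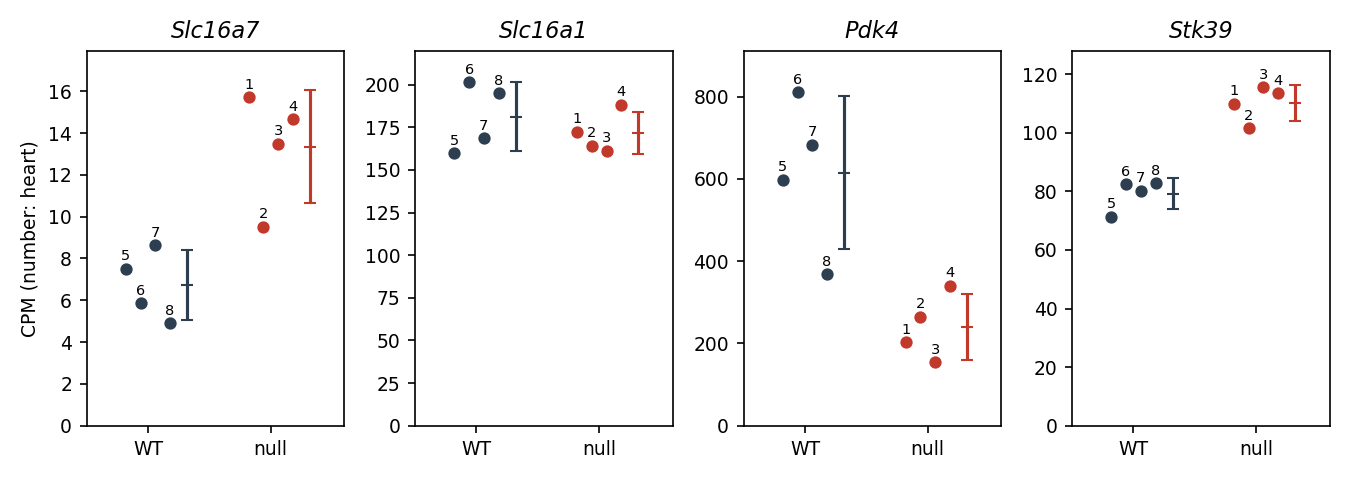
CPM of Slc16a7, Slc16a1, Pdk4 and Stk39 in each heart (points, numbered by heart), with mean and SD of 4 hearts beside them, on axes that start at 0. Slc16a7 and Stk39 are higher and Pdk4 is lower in all 4 HVCN1 null hearts, while the groups of Slc16a1 overlap.

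Bsg (ENSMUSG00000023175, chr10:79704491-79711969, plus strand) encodes basigin, the partner of MCT1 and MCT4. It had 1014, 952.6, 1259 and 1350.0 CPM in HVCN1 null hearts and 1141, 1178, 836.2 and 1097 CPM in WT hearts. The log2 fold change was 0.11 (interval -0.23 to 0.44, edgeR quasi-likelihood adjusted p = 0.899), with overlapping groups.

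Emb (ENSMUSG00000021728, chr13:117208536-117274415, plus strand) encodes embigin, the partner of MCT2. It had 0.901, 2.68, 1.63 and 1.22 CPM in HVCN1 null hearts and 1.85, 1.45, 3.2 and 1.55 CPM in WT hearts. Emb was highest in null heart 2 and WT heart 7, the same 2 hearts that led in atrial markers. Its log2 fold change was -0.33 (interval -1.14 to 0.48, adjusted p = 0.863), the widest interval of the 8, and it was -0.70 without null heart 2, -0.01 without WT heart 7 and -0.51 with the atrial score as a covariate (adjusted p = 0.435). Emb transcripts match transcripts of the abundant genes Rnf7 over 326 bases and Matr3 over 207 bases at 95% identity or more, so its low counts are uncertain.

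No correlation between a chaperone and a transporter passed its test. Among 6 pairs fixed for correlation of log2 CPM over 8 hearts, Pearson's r was 0.31 for Bsg with Slc16a1 (exact permutation p = 0.445, adjusted 0.804, Spearman's rho 0.14, p = 0.752), and 0.10 without hearts 4 and 7, the farthest from the median of Bsg. For Emb with Slc16a7 it was -0.34 (exact permutation p = 0.405, adjusted 0.804, rho -0.36, p = 0.389), and -0.08 without hearts 1 and 7. No pair passed an adjusted p of 0.05 by either measure. The 6 pairs share genes and hearts.

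**Figure D4:**
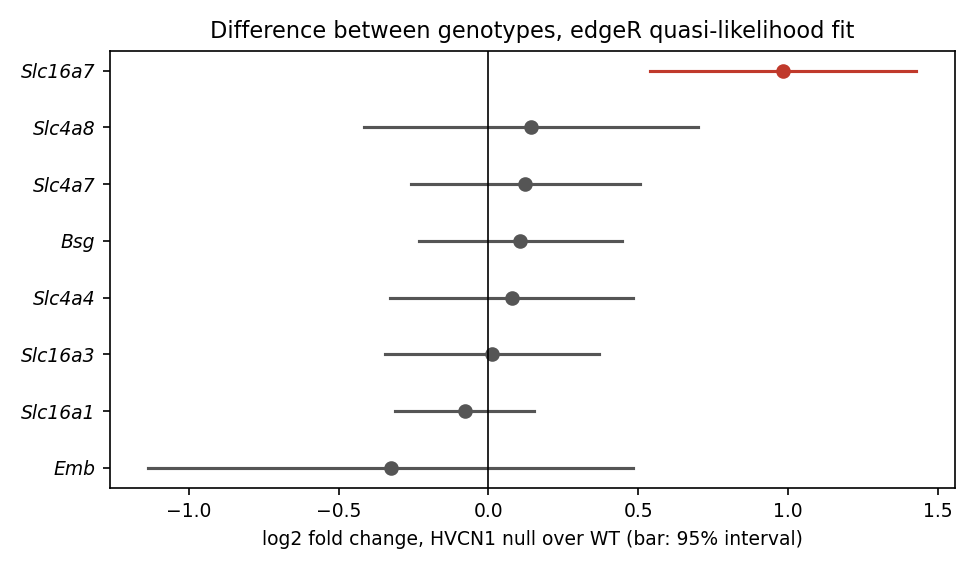
Log2 fold change of the 8 tested genes (points) with 95% intervals (bars) from the edgeR quasi-likelihood fit, sorted by value, with the DEG in red. The intervals of the other 7 genes include 0, from the narrowest for Slc16a1 to the widest for Emb.

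None of the 3 tested sodium-bicarbonate cotransporters was called. Slc4a4 (ENSMUSG00000060961, chr5:88886818-89239653, plus strand), the gene of the electrogenic NBCe1, had 28.25, 33.23, 19.68 and 27.64 CPM in HVCN1 null hearts and 19.03, 23.18, 30.76 and 30.25 CPM in WT hearts. The lowest heart of each genotype, 3 and 5, was near 19 CPM and the groups overlapped fully. The fold change was 0.08 on the log2 scale (interval -0.33 to 0.48, edgeR quasi-likelihood adjusted p = 0.945).

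Slc4a7 (ENSMUSG00000021733, chr14:14702279-14799940, plus strand), the gene of the electroneutral NBCn1, had 14.26, 14.26, 9.20 and 12.1 CPM in HVCN1 null hearts and 8.83, 11.1, 11.8 and 14.15 CPM in WT hearts. Here too hearts 3 and 5 were the lowest of their groups. NBCn1 mRNA had a log2 fold change of 0.12 (interval -0.26 to 0.51, adjusted p = 0.895). Slc4a7 transcripts match transcripts of the abundant genes Pam over 83 bases and Ubap2l over 52 bases at 95% identity or more, in merged exons of 15205 bases.

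Slc4a8 (ENSMUSG00000023032, chr15:100761747-100823968, plus strand) encodes NDCBE, which takes up sodium and bicarbonate in exchange for chloride and is best known from neurons. It had 4.77, 3.91, 2.62 and 2.35 CPM in HVCN1 null hearts and 2.33, 3.25, 2.96 and 3.88 CPM in WT hearts. Its log2 fold change was 0.14 (interval -0.42 to 0.70, edgeR quasi-likelihood adjusted p = 0.923), and it was -0.06 without null heart 1, the highest heart. A 1.5-fold rise is inside the interval of Slc4a8 and outside those of Slc4a4 and Slc4a7.

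Slc4a5 (ENSMUSG00000068323, chr6:83219828-83304945, plus strand), the gene of NBCe2, had 0, 2, 1 and 1 counts in HVCN1 null hearts and 2, 5, 2 and 2 counts in WT hearts. The ratio of the summed counts, scaled to depth, was 0.383 with a 95% counting interval from 0.0889 to 1.29, so a difference was not detectable at this depth. Slc4a10 (ENSMUSG00000026904, chr2:62046462-62326730, plus strand), a bicarbonate cotransporter of brain, had 1, 2, 2 and 0 counts in HVCN1 null hearts and 0 in all WT hearts. A count of 0 allows up to 0.0215 CPM over the WT group, and the lower bound of the counting interval of the ratio was 0.964. These intervals cover counting error only.

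Slc4a4 took 69.7% ± 2.48 of the summed per-kilobase level of the 5 bicarbonate genes in HVCN1 null hearts and 70.2% ± 2.50 in WT hearts (SD, n = 4 each). Slc4a7 took 22.8% ± 0.929 and 22.3% ± 1.504, and Slc4a8 took 7.25% ± 1.76 and 7.07% ± 0.851. For each of these 3 genes the share differed between genotypes by less than the spread between hearts.

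The other transporters of both families gave no DEG in the fit of all 8 hearts. Of 16 other SLC4 and SLC26 anion transporters 11 were tested, with a median log2 fold change of -0.20. Slc4a3 and Slc4a2, chloride-bicarbonate exchangers of heart and most tissues, were the most abundant with 269 and 38.1 CPM, and Slc4a2 had the smallest p (log2 fold change 0.22, edgeR quasi-likelihood adjusted p = 0.395) together with the red cell exchanger Slc4a1 (-1.21, adjusted p = 0.433). The groups of Slc4a2 did not overlap (38.83 to 44.88 CPM in HVCN1 null and 31.8 to 38.45 CPM in WT hearts), as in 7.06% of all tested genes. Without null heart 4, the highest of its group, Slc4a1 was a DEG (-2.08, adjusted p = 0.0339). Summed erythroid markers were 1320, 1312, 3230 and 8418 CPM in HVCN1 null hearts and 15240, 3037, 3964 and 5053 CPM in WT hearts. Both Slc4a1 and these markers were thus highest in null heart 4 and WT heart 5 of their groups. The part of red cell content in the Slc4a1 result was not tested. Of 13 other SLC16 and SLC5 monocarboxylate transporters 9 were tested, with a median of -0.03. The most abundant was Slc16a10, a carrier of aromatic amino acids (21.45 CPM).

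In the latter list the smallest p belonged to Slc16a8 and Slc16a9. Slc16a8, the gene of MCT3, had 0.390, 0.8293, 0.570 and 0.933 CPM in HVCN1 null hearts and 0.405, 0.371, 0.291 and 0.304 CPM in WT hearts (log2 fold change 0.99, edgeR quasi-likelihood adjusted p = 0.271). Its ratio was close to that of Slc16a7, at a level under 1 CPM and with overlapping groups. Slc16a9, the gene of MCT9, had 4.598 to 6.25 CPM in HVCN1 null hearts and 6.31 to 7.43 CPM in WT hearts without overlap (-0.38, adjusted p = 0.278). Groups did not overlap in 7.06% of all tested genes.

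The median log2 fold change was -0.02 over the 16 tested of 17 genes of lactate and pyruvate handling. Among them 1 was called, against 1.14% of all tested genes. It was Pdk4 (chr6:5483351-5496309), whose kinase switches off pyruvate dehydrogenase when fat is burned. Pdk4 had 202.9, 265.0, 154.3 and 340.1 CPM in HVCN1 null hearts and 598.1, 811.1, 683.0 and 367.7 CPM in WT hearts, without overlap, as in 7.06% of all tested genes. Its log2 fold change was -1.35 (SE 0.28, edgeR quasi-likelihood adjusted p = 0.0493), so it was lower in HVCN1 null hearts. Pdk4 was called in 7 of 18 further fits, and with 1 heart left out only without null heart 4 or WT heart 8, whose values lie nearest to the other genotype (adjusted p up to 0.163). The lactate dehydrogenase genes Ldha (-0.17, adjusted p = 0.683) and Ldhb (-0.07, adjusted p = 0.937) and the mitochondrial pyruvate carrier gene Mpc1 (0.00, adjusted p = 0.998), named here after their values were seen, were not called.

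Of 11 regulators and enzymes that act with bicarbonate cotransporters 9 were tested, with a median log2 fold change of 0.03. Among them 1 was called, against 1.14% of all tested genes. It was Stk39 (chr2:68210445-68472268), the gene of the kinase SPAK, which works in the WNK pathway on ion cotransporters, NBCe1 among them. Stk39 had 110.0, 101.7, 115.6 and 113.5 CPM in HVCN1 null hearts and 71.4, 82.4, 80.2 and 82.75 CPM in WT hearts, without overlap, as in 7.06% of all tested genes. Its log2 fold change was 0.48 (SE 0.09, edgeR quasi-likelihood adjusted p = 0.0295). Stk39 was called in all 10 further fits with 8 hearts, but with 1 heart left out only without null heart 2 (adjusted p = 0.0403, and 0.0517 to 0.105 in the other 7). Slc4a4, the gene of NBCe1, had overlapping groups as given above.

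Slc16a3 is a known target of the hypoxia factor HIF-1, whose binding motif has the core ACGTG or GCGTG. Both forms were searched on both strands in RefSeq promoters (GRCm38.p6, 250 bases before to 50 after a gene's start), in which CACGT and CACGC are the same forms on the other strand. Of 32851 promoters, 43.8% held at least 1 match. The table had entries for 8 of the 10 genes and none for Slc16a7 or Bsg, with 10 promoters in all, and 3 of these held a match, in Slc16a1, Slc16a3 and Slc4a4. The promoters of Slc16a1 (chr3:104638414-104638713, plus strand) and Slc16a3 (chr11:120948817-120949116, plus strand) held the most matches and are shown with these in capitals.
Slc16a1: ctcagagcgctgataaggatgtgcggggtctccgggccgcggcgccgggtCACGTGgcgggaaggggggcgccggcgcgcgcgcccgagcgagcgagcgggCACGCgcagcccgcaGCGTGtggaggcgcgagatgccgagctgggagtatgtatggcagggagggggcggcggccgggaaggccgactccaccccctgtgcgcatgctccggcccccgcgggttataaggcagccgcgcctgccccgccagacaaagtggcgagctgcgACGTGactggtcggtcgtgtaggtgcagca
Slc16a3: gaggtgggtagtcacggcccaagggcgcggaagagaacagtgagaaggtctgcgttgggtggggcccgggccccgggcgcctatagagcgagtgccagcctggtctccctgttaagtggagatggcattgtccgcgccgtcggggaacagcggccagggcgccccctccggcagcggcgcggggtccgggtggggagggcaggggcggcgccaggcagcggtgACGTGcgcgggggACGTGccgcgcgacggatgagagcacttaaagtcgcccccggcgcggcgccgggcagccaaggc
Slc16a1 had 4 separate stretches with a match, of which CACGTG counts on both strands, and Slc16a3 had 2. A match describes the sequence only.

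Neither of these 2 genes nor any of the 12 tested HIF-1 target genes, of 13 listed, was called, and the median log2 fold change of the list was -0.08. The oxygen sensor gene Egln1 and the angiogenic factor gene Vegfa were the most abundant (416 and 302 CPM, log2 fold changes -0.09 and -0.02). The smallest p belonged to Egln3, another prolyl hydroxylase (-0.41, edgeR quasi-likelihood adjusted p = 0.262), and Bnip3, a mitophagy gene (-0.27, adjusted p = 0.474).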

How the data were processed

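The authors deposited raw read counts, 1 value for each Ensembl gene in each heart, with no normalization. The authors selected poly-A RNA, amplified libraries with 15 cycles of PCR and sequenced paired reads of 50 nt. The submitters' processing notes name STAR, featureCounts and mm10 (GRCm38), while the paper's text names a human genome, and the gene identifiers are mouse. Whether counting used strand is not given in the sources used here, and Slc16a7 overlaps the opposite-strand gene Gm47862 over 179 bases and Emb overlaps Gm17509 over 686 bases. Symbols, positions and exon lengths came from GENCODE M21, which held 38872 of 39056 identifiers.

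CPM values, TMM scaling, filterByExpr and quasi-likelihood tests were computed with edgeR 4.0.16 (adjusted p by Benjamini-Hochberg over 14796 genes), and other fits with DESeq2 1.42.0 and limma 3.58.1. Log2 CPM used a prior count of 2. Mean CPM was compared by exact permutation of the 70 assignments of hearts. Motifs and coding sequences were read from RefSeq and GENCODE, aligned with Biopython 1.88, and near-identical transcripts were found with BLAST+. Genes named outside the 10 are those of a pathway list that were called, and otherwise the 2 of highest CPM and the 2 of smallest p, and the 2 genes most like each of the 10 over the hearts. Some genes that this rule names are not reported here, but list counts include them. The genes and all lists were chosen with earlier results of these data known. The study counts the 4 hearts of a genotype as independent, and the labels give neither animals nor batches. No pair of libraries of the same genotype agreed within sampling noise.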

Additional observations from a re-analysis of the deposited data

Results flagged for a closer look

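In 3 of 45 groups of 4 hearts checked (23 genes, each genotype apart), 1 heart lay far from the other 3, and chance alone gives about 1 in 20. Bnip3 had 86.54 CPM in WT heart 7, and 123.5 to 126.9 CPM in the other WT hearts. Slc4a1 had 20.93 CPM in WT heart 5, and 8.04 to 9.66 CPM in the other WT hearts. The summed erythroid markers were also highest in WT heart 5 (15240 CPM). Slc4a5 had 0.1545 CPM in WT heart 6, from 5 counts, and 0.0506 to 0.0675 CPM in the other WT hearts, from 2 counts each. None of the 8 tested cotransporter and chaperone genes had such a heart.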

How the results depend on the processing

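The number of DEGs among the 10 genes was 1, and it was 0 with library sizes not scaled, with a filter of CPM above 1 in at least 4 hearts, with voom and at an adjusted p under 0.01, and 0 to 1 with 1 heart left out. Slc16a7 then had log2 fold changes of 1.002, 0.98 and 0.97 (adjusted p = 0.0868, 0.0567 and 0.0599), and 0.87 to 1.13 with 1 heart left out. The 5 pathway lists gave 2 DEGs (Pdk4 and Stk39), 1 (Stk39) with RLE scaling, library sizes not scaled, the CPM filter, voom or TMM factors from all genes (the last chosen after seeing the data), and 0 to 2 with 1 heart left out (the 2 without null heart 4 were Pdk4 and Slc4a1). Over all genes there were 169 DEGs, 367 by the exact test, 376 by the likelihood ratio test, 466 by DESeq2, 56 at an adjusted p under 0.01, 1625 at an unadjusted p under 0.05, and 71 to 152 with 1 heart left out. The cause was not tested.

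Of the 7 tested genes that were not called, Slc4a4, Slc4a8 and Slc16a3 changed direction with 1 heart left out. The log2 fold change ran from -0.0355 to 0.20 for Slc4a4, from -0.0636 to 0.29 for Slc4a8 and from -0.0395 to 0.0566 for Slc16a3, and the difference in mean CPM from -0.864 to 3.90, from -0.147 to 0.663 and from -0.0682 to 0.0799. The untested Slc4a10 had 1, 2 and 2 counts in null hearts 1 to 3, and 0 in null heart 4 and all WT hearts. Leaving out null heart 4 thus fixed its exact permutation p at 0.0286, the smallest that 3 against 4 hearts allow. Pearson's r of Bsg with Slc16a3 was 0.04, but -0.0477 on CPM and -0.61 without hearts 4 and 7. That of Bsg with Slc16a7 was 0.17, but -0.14 without hearts 4 and 7 and -0.078 centred on genotype means, and that of Slc4a4 with Slc16a1 was 0.25, but -0.75 without hearts 3 and 5. The place in the order of levels was kept by 6 of 10 genes with the longest transcript. No paired analysis was possible because the labels give no pairing of HVCN1 null with WT hearts.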

Other observations

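For each of the 8 tested genes, the 2 genes with the most similar log2 CPM over the 8 hearts were picked from all tested genes by Pearson's r, as a description. Slc16a7 was most like Ifit1bl1 (r = 0.97) and Ssh3, a cofilin phosphatase gene (0.96), and neither was a DEG (edgeR quasi-likelihood adjusted p = 0.354 and 0.0944). Slc4a7 was most like Map3k7, the gene of the kinase TAK1, and Hif1a (0.99 each), Slc4a4 like Zfp536 and Abca5 (0.98 each), and Slc4a8 like Atxn3 (0.97) and Atxn7 (0.96). Slc16a1 was most like Hsd17b4, a peroxisomal enzyme gene (0.99), and Pus7 (0.98). Bsg was most like Glrx5, a glutaredoxin gene of iron-sulfur cluster assembly (0.98), and Sap30l (0.97), Emb like Pdgfc and Adcy1 (0.97 each), and Slc16a3 like A930007I19Rik (0.97) and Abcg3 (0.92). The best of 14795 genes is similar to some degree in any data.

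Of the 28 pairs of the 8 tested genes, looked at after their values were seen, Slc4a4 with Slc4a7 had the highest Pearson's r of log2 CPM, 0.92 (exact permutation p = 0.00268, adjusted over the pairs 0.075, Spearman's rho 0.76), and 0.66 without hearts 3 and 5, in which both were low. Slc4a7 with Slc4a8 had a lower r (0.80) but a higher rho (0.83), and 0.74 without the same hearts. Neither relation passed the adjustment.

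Acta2, the actin gene of smooth muscle, was the only DEG among the cell type markers in the fit of all 8 hearts, and the marker lists gave 0 to 5 DEGs in other fits, the macrophage gene Cx3cr1 in 6 of 18. It had 357.1, 149.8, 336.1 and 201.0 CPM in HVCN1 null hearts and 107.6, 107.1, 125.2 and 79.5 CPM in WT hearts (log2 fold change 1.32, edgeR quasi-likelihood adjusted p = 0.0466). Acta2 was called in 9 of 18 further fits and in 2 of 8 with 1 heart left out, while the median of the 8 smooth muscle and pericyte markers was 0.08.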
